A study of Mus musculus with 4 samples.

Results

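The cells described here are the non-endocrine epithelial cells of an adult and an E17.5 library of mouse intestine, compared through the summed RNA of the 228 adult and 2135 E17.5 cells that met one rule. They make up 2363 of the 22731 cell barcodes deposited for the series, 3.63% of the 6287 adult barcodes and 40.8% of the 5232 E17.5 barcodes. A cell was kept when it had at least 500 genes detected, at most 20% of its UMIs (unique molecular identifiers, each counting 1 captured RNA molecule) from mitochondrial genes and at least 1 UMI of Epcam, the epithelial adhesion molecule. Its UMIs of Chga and Chgb, the granins of endocrine granules, had to stay under 0.1% of its total, and fewer than 2 of the 4 tuft genes Dclk1, Trpm5, Avil and Sh2d6 could be detected. Cells with 1% or more of UMIs from Ins1 and Ins2, or 2% or more from the pancreatic acinar genes Cpa1, Ctrb1, Cela1, Prss2 and Cel, were also left out. The cells were thus selected on their depth and on measured UMIs of these marker genes, whose levels are not findings.

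The study sorted intestinal epithelium from Bmi1-GFP reporter mice and sequenced it by droplet-based single-cell RNA sequencing (10x Genomics). It holds 4 libraries, from embryos at E12.5 and E17.5 and from adult and irradiated adult animals, all of the Bmi1-GFP strain. The labels give neither the number, sex or adult age of the animals nor the radiation dose and the time after it. Each group is 1 library, so no difference below could be set against the spread between replicates. There is no p-value, and intervals cover counting error only.

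The intestinal epithelium is renewed from stem cells at the base of crypts, which give rise to absorptive enterocytes and to secretory goblet, Paneth, tuft and enteroendocrine cells. In the mouse, crypts and Paneth cells appear only after birth. The late fetal gut instead carries villi lined by an epithelium that takes up luminal protein by endocytosis, and around weaning the fetal and suckling programmes of transport and metabolism give way to the adult ones.

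Promoter stretches of 5 genes are shown because their groups differed together between the libraries: the class II antigen presentation genes H2-Aa, H2-Eb1 and H2-DMb1, all higher in the adult cells, and the sterol synthesis genes Mvk and Idi1, both lower. The sequences are the 120 bases before the RefSeq start of each gene on GRCm38.p6, written 5′ to 3′ on the gene's strand, at chr17:34287824-34287943 (minus strand) for H2-Aa, chr17:34305747-34305866 (plus) for H2-Eb1, chr17:34153071-34153190 (plus) for H2-DMb1, chr5:114444149-114444268 (plus) for Mvk and chr13:8885486-8885605 (plus) for Idi1. Capitals mark GATTGG and its reverse complement CCAATC, the inverted CCAAT motif known as the Y box, and AACTGATGATGCT, a stretch that H2-Eb1 and H2-DMb1 share.
H2-Aa: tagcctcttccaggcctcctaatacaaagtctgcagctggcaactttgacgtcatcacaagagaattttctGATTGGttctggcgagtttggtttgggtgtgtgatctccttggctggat
H2-Eb1: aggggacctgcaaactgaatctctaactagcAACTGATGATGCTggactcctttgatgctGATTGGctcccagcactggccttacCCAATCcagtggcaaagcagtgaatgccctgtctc
H2-DMb1: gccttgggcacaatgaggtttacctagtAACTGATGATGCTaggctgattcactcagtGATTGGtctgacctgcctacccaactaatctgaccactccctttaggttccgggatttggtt
Mvk: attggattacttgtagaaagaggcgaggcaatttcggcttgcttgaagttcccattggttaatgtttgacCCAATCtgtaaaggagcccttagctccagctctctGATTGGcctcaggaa
Idi1: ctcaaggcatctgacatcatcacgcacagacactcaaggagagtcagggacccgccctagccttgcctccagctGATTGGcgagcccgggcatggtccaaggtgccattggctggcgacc
In the 3 class II promoters the motif GATTGG began 49 to 62 bases before the start. The 13-base stretch began 89 bases before the start in H2-Eb1 and 92 bases before it in H2-DMb1, and 3 of 32851 RefSeq promoter windows held it on either strand. Over windows of 250 bases before to 50 after the start, GATTGG on either strand was present in 16.1% of all windows. By windows it was present in 4 of 6 of the class II genes that had an entry, 10 of 13 of sterol synthesis, 10 of 20 of class I and antigen processing, 7 of 16 of alpha-defensins and Paneth granule, 11 of 45 of xenobiotic and 6 of 25 of fetal growth and imprinted genes. Such a match is a description of the letters, not of a bound site, and of the 6 lists searched the 2 with the largest shares differed in opposite directions.

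The kept cells held 52130212 UMIs at E17.5 and 8352912 in the adult, with medians of 24609 and 26433.5 UMIs per cell. These medians stood above those of all deposited barcodes, 9715.5 and 2847 UMIs. In the adult the median was 4934 UMIs for the 1127 cells left before the tuft step and 26433.5 for the 228 cells left after it, so the tuft step left out mostly shallow cells. The median mitochondrial share was 4.49% at E17.5 and 9.05% in the adult. No kept cell of the adult shared its barcode with a kept E17.5 cell, while 6 deposited barcodes were shared. Fewer cells of a type and less RNA per cell cannot be told apart in such sums.

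Against its label, the adult set was not free of endocrine RNA. Epcam, which the rule required, stood at 2211 CPM (counts scaled to a total of 1000000 UMIs over the kept cells of a library) at E17.5 and 1292 CPM in the adult. Paneth genes, 37 in all, took 27.1% of adult UMIs and 0.0559% of E17.5 UMIs. The adult cells fell into ranges along this share: in 60 cells a list of Paneth markers took 10% or more of the UMIs, in 115 it took under 1%, and in 53 it lay between. Those 53 cells had a median of 1828 UMIs, of which 37 were Paneth UMIs, and the 115 had a median of 34632 UMIs with 27 Paneth UMIs. At E17.5 the list took 1% or more in 28 of 2135 cells and 10% or more in none. Hormone genes were present as well: an enteroendocrine list took 1% or more of the UMIs in 29.8% of adult and 8.15% of E17.5 kept cells.

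**Figure D1:**
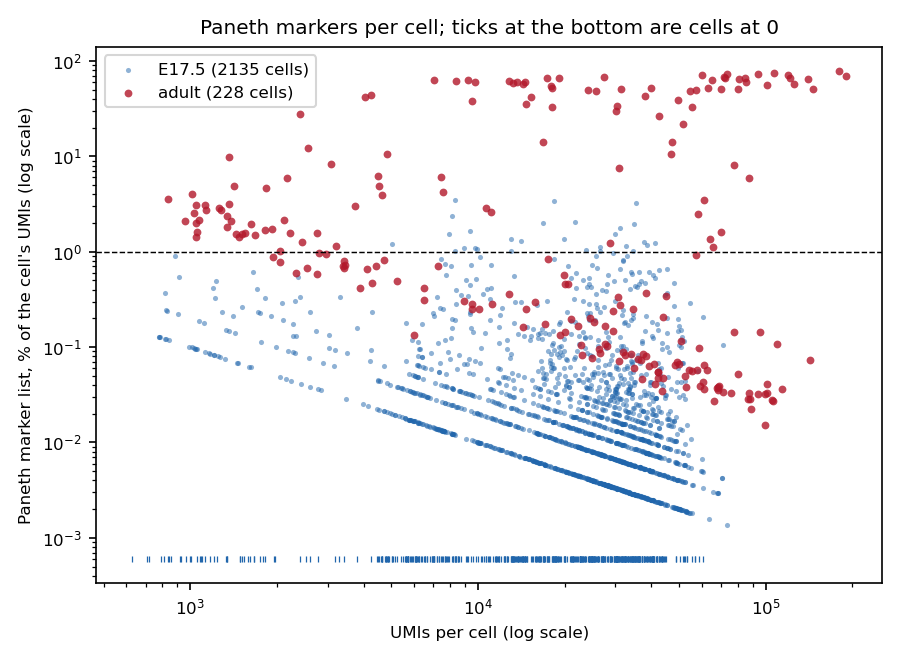
Each point is 1 kept cell, with its UMIs on the x axis and the share of them from a list of Paneth markers on the y axis, both on log scales; ticks at the bottom are cells at 0, and the dashed line marks 1%. The adult cells (red) include 60 above 10%, where no E17.5 cell (blue) lies, and 115 below 1%.

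Because the Paneth genes enter the total, most list counts below are also given for the 115 adult and 2107 E17.5 cells under 1%, called the low-Paneth cells. Levels in 860 tuft and 1068 endocrine cells of the same adult library, with medians of 4527.5 and 4729.5 UMIs, are given as a measure of RNA that droplets of other cell types held. Shares of cells with a UMI were taken after thinning each cell to 2000 UMIs, which left out 86 E17.5 and 29 adult cells, and the unthinned share follows in brackets. Defa24 stood at 8563 CPM in the adult tuft cells and was detected in 96.1% of them, and in each of them before thinning. Among kept cells, RNA of the mesenchymal list was almost confined to the E17.5 set: it summed to 212.8 CPM there and 1.0 CPM in the adult, and the smooth muscle list to 183.1 and 0.6 CPM. Of the mesenchymal sum at E17.5, Vim made up 56.6 CPM and Dlk1, also an imprinted gene, 42.1 CPM. These 2 genes stood at 453 and 200 CPM in E17.5 endocrine cells, and Vim at 80.5 CPM in adult endocrine cells, so their part need not come from mesenchymal cells. The Y-linked genes Ddx3y, Eif2s3y, Uty and Kdm5d stood at 8.59 to 36.3 CPM at E17.5 and at 0 UMIs in the adult, while Xist stood at 373 and 820 CPM, so stage and the sex of the animals cannot be told apart. Bmi1, the gene of the reporter, stood at 8.23 CPM (95% Poisson interval 7.47 to 9.05) at E17.5 and 4.19 CPM (2.92 to 5.83) in the adult, and the eGFP feature had 44 and 5 UMIs. In adult tuft and endocrine cells Bmi1 stood at 15.1 and 15.5 CPM.

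Among 15095 genes with at least 10 UMIs in the 2 groups together, 212 (1.40%) were at least 4-fold higher and 493 (3.27%) at least 4-fold lower in the adult cells, on the scale of log2 of the ratio of CPM + 1, which understates the difference of low genes. At 2-fold the counts were 641 higher (4.25%) and 2493 lower (16.5%), or 902 (6.02%) and 1525 (10.2%) in the low-Paneth cells, and the median over all genes was -0.43 log2. That median was -0.09 with TMM scaling, a shift of 0.35, and the share of 4-fold differences that were higher in the adult was 48.0% (306 higher, 331 lower) in place of 30.1%. It was 48.5% with median-of-ratios scaling, 45.6% when Paneth genes were taken out of the total and 39.4% in the low-Paneth cells, where 276 genes (1.84%) were higher and 425 (2.84%) lower, with a median over all genes of -0.17. Just inside the 4-fold limit lay Mcc, at 1.88 and 10.5 CPM, and Clic6, at 87.4 and 21.1 CPM. Neat1, at 39.1 and 158.5 CPM, and Cklf, at 16.9 and 3.47 CPM, lay just outside it. Of the 212 higher genes, 144 stood above their interval in adult tuft cells, 34 below it and 34 overlapped it. The 144 included all 27 Paneth genes among the 212, and outside Paneth genes 117 of 185 stood above. The same count over all 15095 genes is not given, so whether these shares are unusual cannot be read. Of the 493 lower genes, 129 had no UMI in the adult cells and 90 had 1 to 3. In adult tuft cells 237 of the 493 stood above 1 CPM.

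**Figure D2:**
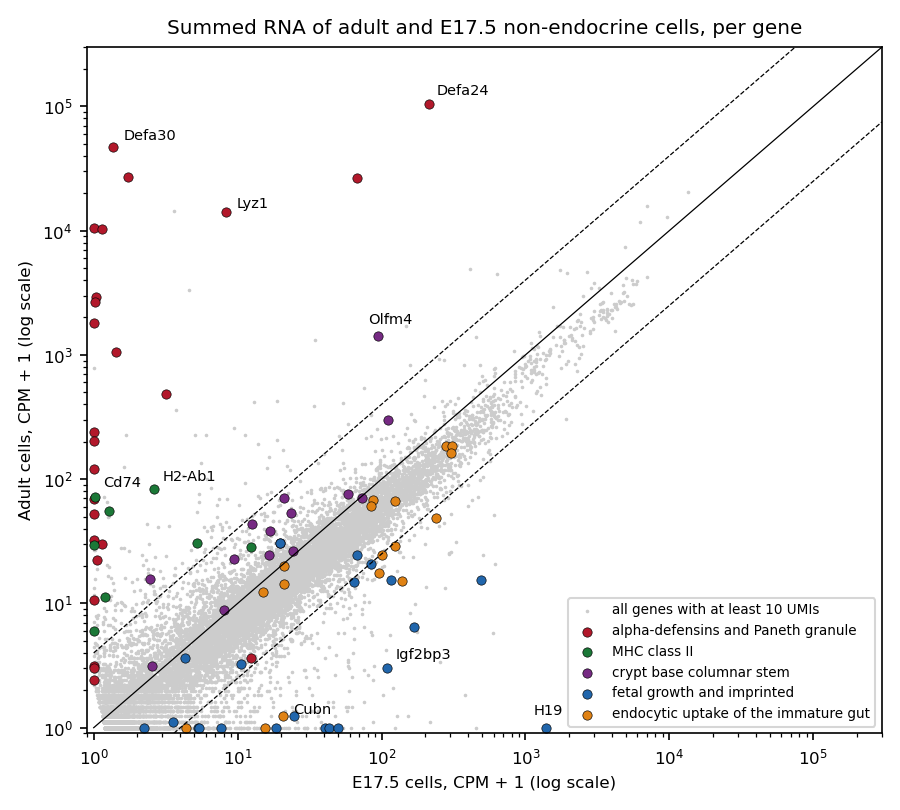
Each point is 1 gene, with its summed level in the E17.5 cells on the x axis and in the adult cells on the y axis, both as CPM + 1 on log scales; the solid line marks equal levels and the dashed lines a 4-fold difference. Most alpha-defensins and class II genes lie above the upper line, and 9 fetal growth and 2 endocytic genes lie on the bottom axis, with no UMI in the adult.

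The 12 genes with the highest ratio all belonged to the 37 Paneth genes; Paneth cells are the granulated crypt cells that secrete antimicrobial peptides. In the list of alpha-defensins and Paneth granule genes, 24 of 25 tested genes were at least 2-fold higher in the adult, with a median of 7.67 log2. Many of them, such as Defa21, Defa22 and Defa29, had no UMI at E17.5 and passed the limit of 10 UMIs through the adult alone. Such genes could only come out at least 2-fold higher, and the median was the ratio of Defa22, so its size depends on the pseudocount. Defa24 stood at 0 CPM at E12.5, 211.8 CPM at E17.5 and 104976 CPM in the adult. Lyz1, the Paneth lysozyme, stood at 7.31 and 14036 CPM, and the angiogenin Ang4 at 3.59 and 3344 CPM. Defa29 had no UMI at E17.5 and stood at 10494 CPM in the adult, at least 182346-fold higher against a floor of 3 UMIs per library. Reads of near-identical defensin copies can be split between genes, so the level of a single defensin is uncertain. Mptx1, a mucosal pentraxin, was the exception, at 11.3 CPM at E17.5 and 2.63 CPM in the adult.

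In the low-Paneth cells 11 of the 13 granule genes still tested were at least 2-fold higher, and the median was 2.69 log2. Their adult total for all 37 Paneth genes was 0.119% of UMIs, below the 2.04% of adult tuft cells and the 0.450% of adult endocrine cells. The goblet list differed less with this choice: 6 of 13 genes were 2-fold higher and none lower in either set, with medians of 0.86 and 0.66 log2. Muc2, the gel-forming mucin, stood at 15.5 and 151 CPM. Spink4, a goblet protease inhibitor, stood at 413 and 4893 CPM, but its ratio was 3.56 log2 over all cells and 0.66 in the low-Paneth cells. Of the 39 adult cells in which goblet genes took 1% or more of the UMIs, 33 also passed that limit for Paneth markers. The colipase gene Clps reversed: it was 3.52 log2 higher over all cells and 3.58 lower in the low-Paneth cells.

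All 8 class II antigen presentation genes tested were at least 2-fold higher in the adult, over all cells (median 4.07 log2) and in the low-Paneth cells (median 4.46). Of these, H2-Aa and Ciita had no UMI at E17.5 and passed the limit of 10 UMIs through the adult alone. Such genes could only come out at least 2-fold higher. Class II molecules present peptides taken up from outside the cell to helper T cells. H2-Ab1, a beta chain, stood at 0.91 CPM at E12.5, 1.63 CPM (1.30 to 2.02) at E17.5, 81.9 CPM (75.9 to 88.3) in the adult and 4.13 CPM in the irradiated adult, so the adult library was the high one. The alpha chain H2-Aa had no UMI at E17.5 and 28.6 CPM in the adult, at least 497-fold higher. H2-Eb1 stood at 0.27 and 54.2 CPM. Cd74, the invariant chain that guides class II molecules, had 1 UMI at E17.5 and 591 in the adult, a ratio of 3688 with a counting interval of 659 to 145928. The transactivator gene Ciita had no UMI at E17.5 and stood at 5.03 CPM in the adult cells. In adult tuft and endocrine cells Ciita stood at 0.17 and 1.24 CPM. Other class II genes were less low there, with H2-Ab1 at 38.6 and 34.5 CPM and H2-Aa at 12.3 and 7.82 CPM. These levels were below those of the kept adult cells, but class II RNA of the adult library was not confined to the kept cells. The peptide-loading chains H2-DMa and H2-DMb1 stood at 4.22 and 0.19 CPM at E17.5 and at 29.5 and 10.3 CPM in the adult.

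Class II RNA was found in a minority of the thinned adult cells, at a depth where a gene of this level is missed in most cells. Cd74 was detected in 0 of 2049 E17.5 cells (0.0468%) and in 13.6% of 199 adult cells (50.9%; 95% Clopper-Pearson interval of the thinned share 9.14 to 19.1%), against 1.20% (3.60%) of adult tuft cells. At least 3 class II UMIs were found in 7.54% (57.5%) of adult cells, 0.0488% (2.86%) of E17.5 cells and 0.482% (3.02%) of tuft cells. Of 23 immune markers 13 had enough UMIs to be tested, 6 were 2-fold higher and 2 lower, and the list summed to 9.69 CPM at E17.5 and 53.2 CPM in the adult. The 2 lower ones were the macrophage markers Csf1r and C1qa, with no UMI in the adult. Among the 6 higher was the myeloid lysozyme Lyz2, at 0.38 CPM at E17.5 and 3.47 CPM in the adult. In the low-Paneth adult cells Lyz2 stood at 0 CPM. Rac2 was also among them, at 0.04 and 3.71 CPM, and at 936 CPM in adult tuft cells. In the adult library 1 cell held all 217 UMIs of Gzma, a cytotoxic granule protease, and 79 of the 80 UMIs of Ccl5. Leaving out cells above 0.5% of mesenchymal, immune or erythroid UMIs removed 1 adult cell. Over the 227 left the class II median was 4.07 log2, as before. No class II gene is on the immune list, and removing 1 cell could hardly move this median. Whether the class II RNA came from immune cells was thus not tested.

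Genes of the peptide supply to class I molecules were also higher in the adult. Of 21 class I and antigen processing genes, 7 were at least 2-fold higher and none lower (median 0.71 log2), and in the low-Paneth cells 15 were higher (median 1.28). Psmb8 and Psmb9, subunits of the immunoproteasome, stood at 12.9 and 22.3 CPM at E17.5 and at 192 and 117 CPM in the adult. Tap1, which carries peptides into the endoplasmic reticulum, stood at 4.83 and 24.9 CPM. The class I heavy chain H2-K1 (231 and 377 CPM) and the light chain B2m (148 and 258 CPM) differed by less than 2-fold over all cells. In the low-Paneth cells they were 2.27-fold and 2.48-fold higher in the adult. Adult tuft cells held more of B2m, at 1011 CPM, and of Psmb8, at 262 CPM. Of 29 interferon response genes 9 were 2-fold higher and 2 lower (median 0.58; low-Paneth 12 and 2 of 28, median 0.86), with the membrane protein gene Ifitm3 at 17.7 and 428 CPM.

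Genes that serve the surface facing luminal microbes were split. Of 23 antimicrobial and microbe-responsive genes tested, 10 were at least 2-fold higher and 2 lower (median 0.71 log2; low-Paneth 11 higher and 1 lower of 22, median 1.17). Pigr, the receptor that carries IgA across the epithelium, stood at 0.08 CPM at E12.5, 33.5 CPM at E17.5, 1311 CPM in the adult and 199 CPM in the irradiated adult. After thinning it was detected in 4.15% (26.6%) of E17.5 cells, 78.9% (91.2%) of adult cells and 15.3% (26.7%) of adult tuft cells. The lectin Reg3g stood at 4.05 CPM at E17.5, 224 CPM in the adult, 2095 CPM in the irradiated adult and 153 CPM in adult tuft cells, and was detected in 0.781% (5.9%), 17.1% (43.0%) and 3.37% (6.86%) of E17.5, adult and tuft cells. Other members were already present before birth: Lypd8, a protein that binds flagella, stood at 2458 and 1455 CPM, and the chemokine Ccl25 at 415 and 413 CPM.

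**Figure D3:**
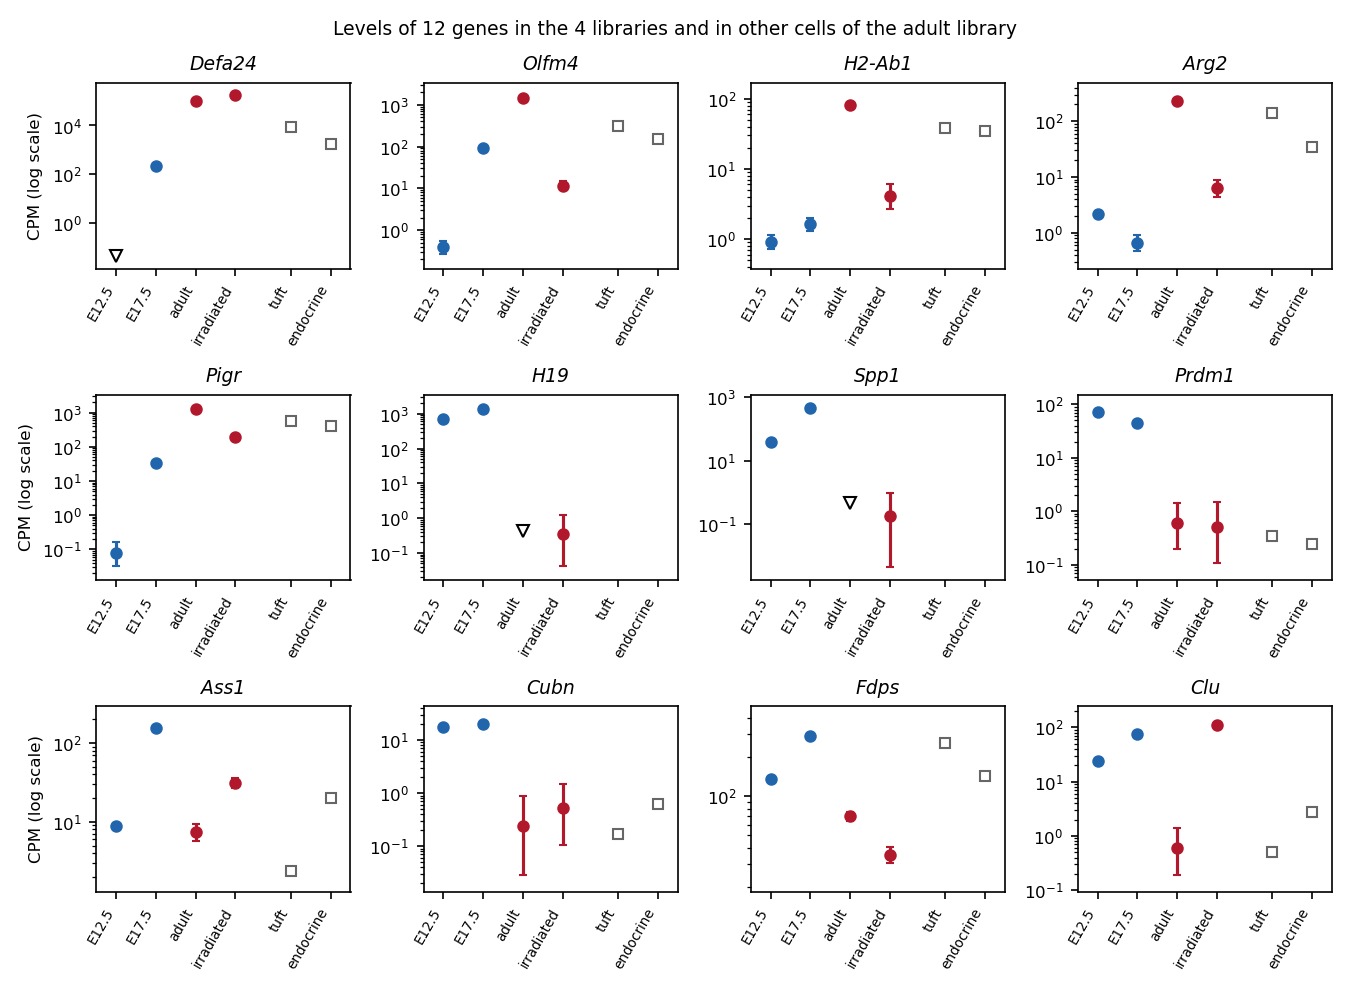
Levels in CPM on a log axis for 12 genes in the kept cells of the 4 libraries (filled points, blue embryonic and red adult, with 95% Poisson intervals) and in tuft and endocrine cells of the adult library (open squares, not drawn where 0); open triangles are upper 95% limits where no UMI was found. Olfm4, H2-Ab1, Arg2 and Pigr peak in the adult library, while H19, Prdm1 and Cubn are at or near 0 in both adult libraries; Clu is high again in the irradiated adult.

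The crypt base columnar stem cell list was higher in the adult: 8 of 15 genes were at least 2-fold higher and none lower, with a median of 1.19 log2 both over all cells and in the low-Paneth cells. The member with the largest ratio was Olfm4, a secreted glycoprotein of mouse crypt stem cells, which stood at 0.39 CPM at E12.5, 94.2 CPM (91.6 to 96.8) at E17.5, 1414 CPM (1389 to 1440) in the adult and 11.5 CPM in the irradiated adult. It was 15.0-fold higher in the adult than at E17.5 (counting interval 14.5 to 15.5), and it was detected in 10.7% (29.5%) of E17.5 cells, 51.8% (66.7%) of adult cells and 11.2% (20.7%) of adult tuft cells. The Wnt target Sp5 stood at 1.46 and 14.7 CPM, Smoc2 at 19.9 and 70.0 CPM and Axin2 at 15.7 and 37.2 CPM. The receptor Lgr5 itself differed little, at 15.5 CPM (14.5 to 16.6) and 23.5 CPM (20.3 to 27.0), its ratio was -0.23 log2 in the low-Paneth cells, and it was found in 1.95% (19.4%) of E17.5, 2.01% (26.8%) of adult and 2.17% (5.70%) of tuft cells, so thinning left no difference to read. By level, Lgr5 stood at 12.2 and 3.1 CPM in adult tuft and endocrine cells and at 3.56 CPM in E17.5 endocrine cells, below the kept cells of either library. Sox9 stood at 72.7 and 69.1 CPM. At least 3 stem list UMIs were found in 11.5% (65.6%) of E17.5 and 47.7% (73.2%) of adult cells, against 21.3% (63.4%) of adult tuft cells. Olfm4 belongs to this list, so these shares are not independent of its own and need not reflect the other members.

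Proliferation genes were present at both ages. Mki67, which marks cycling cells, stood at 166 CPM at E17.5 and 177 CPM in the adult, and was detected in 21.0% (59.9%) and 22.1% (48.2%) of cells, against 1.45% (4.88%) of adult tuft cells. Most of the G2 and mitosis list was lower in the adult: 9 of 17 genes were at least 2-fold lower and none higher (median -1.04 log2), with Birc5 at 398 and 133 CPM and Ube2c at 567 and 218 CPM. In the low-Paneth cells none of the 17 passed 2-fold and the median was -0.41. At least 3 UMIs of this list were found in 50.3% (73.5%) of E17.5 cells, with a 95% Clopper-Pearson interval of 48.1 to 52.5%, and in 30.2% (54.4%) of adult cells, with an interval of 23.9 to 37.0%. Of 18 S phase genes 2 were 2-fold lower and none higher (median -0.53; low-Paneth none, median -0.16), close to the median of all genes.

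Enterocyte genes divided into some that were higher in the adult and some that were higher at E17.5. Arg2, the mitochondrial arginase, stood at 0.67 CPM (0.47 to 0.93) at E17.5 and 225 CPM (215 to 236) in the adult, and Car4, a membrane carbonic anhydrase, at 0.61 and 124 CPM. Sis, the sucrase-isomaltase that the mouse gut makes from weaning, stood at 4.58 and 133 CPM, and Treh, trehalase, at 0.25 and 15.6 CPM. The levels of these 4 genes in adult tuft cells were 141, 67.9, 84.7 and 9.94 CPM, and adult endocrine cells held 1173 CPM of Sis. Lactase, Lct, the disaccharidase of suckling, stood at 40.0 and 21.9 CPM. Rbp7, a retinol-binding protein, stood at 0.23 and 65.0 CPM, and the vitamin D receptor Vdr at 5.16 and 99.9 CPM.

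On the other side stood Ass1, the argininosuccinate synthase that makes arginine in the suckling gut, at 8.96 CPM at E12.5, 156 CPM at E17.5, 7.42 CPM in the adult and 31.3 CPM in the irradiated adult. Cps1 and Otc, which make citrulline, differed by less than 2-fold, at 843 and 468 CPM and at 208 and 174 CPM. Apoc3, an apolipoprotein of chylomicrons, stood at 507 and 103 CPM, and the iron exporter Slc40a1 at 74.3 and 5.51 CPM. As whole lists the enterocyte genes were near the median of all genes: 1 of 16 maturation genes was 2-fold higher and 3 lower (median -0.52; low-Paneth 3 and 1, median 0.18), and 5 of 18 brush border hydrolases were higher and 2 lower (median -0.22; low-Paneth 6 and 1, median 0.32). With TMM scaling the medians of these 2 lists were -0.04 and 0.19.

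Prdm1 encodes Blimp1, a repressor of the adult enterocyte programme in the fetal and suckling gut of the mouse. It lies at chr10:44437177-44528501 (minus strand) on GRCm38 and stood at 71.8 CPM at E12.5, 44.8 CPM (43.0 to 46.6) at E17.5, 0.60 CPM (0.19 to 1.40) in the adult and 0.52 CPM in the irradiated adult, so both embryonic libraries were high and both adult ones near 0. It was 74.8-fold higher at E17.5 than in the adult (counting interval 32.0 to 231) and had a UMI in 6.83% (51.8%) of E17.5 cells and in 0 of 199 adult cells (1.75%); at 2000 UMIs, 0 of 199 allows up to 1.51% of cells with a UMI. The regulator Maf stood at 76.7 CPM at E17.5 and 34.0 CPM in the adult. Of the 31 intestinal lineage transcription factors, 2 were 2-fold higher and 9 lower (median -0.17, or 0.30 with TMM scaling), and in the low-Paneth cells 3 were higher and 3 lower.

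Genes that process foreign compounds were more often higher than lower in the adult. Of 38 xenobiotic genes 15 were at least 2-fold higher and 6 lower (median 0.67 log2), and in the low-Paneth cells 22 were higher and 4 lower (median 1.33). Ces1f, a carboxylesterase, stood at 0.17 CPM at E17.5, 70.4 CPM in the adult and 31.7 CPM in adult tuft cells. Adh6a, an alcohol dehydrogenase, stood at 5.05, 226 and 168 CPM in the same order. The cytochrome Cyp2b10 had 1 UMI at E17.5 and 218 in the adult. Within the list the embryonic cells had their own members, with the glutathione transferase Gsta3 at 35.0 and 1.56 CPM and the aldo-keto reductase Akr1c19 at 400 and 60.1 CPM.

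Fetal growth and imprinted genes were lower almost as a whole, 19 of 21 being at least 2-fold lower in the adult and none higher, over all cells (median -2.91 log2) and in the low-Paneth cells (median -2.51). H19, an imprinted noncoding RNA at chr7:142575529-142578143 (minus strand), stood at 711 CPM at E12.5, 1398 CPM at E17.5, 0 UMIs in the adult and 0.34 CPM in the irradiated adult. That was at least 3891-fold lower in the adult than at E17.5. Its neighbour Igf2, the fetal insulin-like growth factor, stood at 17.4 CPM at E17.5 and 0 in the adult, at least 48.3-fold lower. The RNA-binding proteins Igf2bp1 and Igf2bp3 stood at 39.7 and 109 CPM at E17.5 and at 0 UMIs and 2.04 CPM in the adult. Grb10, an imprinted growth inhibitor, and Dlk1, an imprinted ligand of the Notch family, had no UMI in the adult and were at least 135-fold and 117-fold lower. Genes without an adult UMI, such as H19, Igf2, Igf2bp1, Grb10 and Dlk1, passed the limit on UMIs through E17.5 alone. Such genes could not come out higher, so the lack of higher genes in this list says nothing about them. Cdkn1c, an imprinted cell cycle inhibitor, stood at 492 and 14.4 CPM, but at 215 CPM in adult tuft cells.

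RNA of the fetal growth and imprinted list was found in most E17.5 cells, but this did not hold for each gene. Dlk1 had a UMI in 15.0% of E17.5 cells before thinning. At least 3 UMIs of the list were found in 69.1% (98.9%) of E17.5 cells, 2.51% (51.8%) of adult cells and 7.59% (29.3%) of adult tuft cells. The thinned share was 41.7% in adult endocrine cells, so the adult library as a whole did not lack RNA of this list. H19 alone was detected in 61.9% (86.1%) of E17.5 cells and in 0 of 199 adult cells (0 of 228). The fetal-like epithelium list, genes also known from regenerating gut, followed with 10 of 16 genes 2-fold lower and none higher (median -1.69; low-Paneth 9 lower and 1 higher). Clu, clusterin, stood at 74.4 CPM at E17.5, 0.60 CPM in the adult and 110 CPM in the irradiated adult. Anxa1, annexin A1, had 20.9 CPM, 0 UMIs and 22.9 CPM in the same order, so both were low in the adult library alone among these 3.

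Receptors and enzymes of endocytic protein uptake were lower in the adult. Of 17 genes in that list 8 were at least 2-fold lower and none higher (median -0.89 log2), and in the low-Paneth cells 9 were lower (median -1.0). Cubn, cubilin, the receptor that binds luminal protein, stood at 19.7 CPM (18.5 to 21.0) at E17.5 and had 2 UMIs in the adult, 82.4-fold lower with a counting interval of 22.7 to 681. Dab2, the adaptor that links such receptors to clathrin, stood at 14.6 CPM and had no UMI in the adult. Amn, amnionless, the partner that holds cubilin in the membrane, stood at 239 and 47.5 CPM. Fcgrt, the neonatal receptor for IgG, stood at 123 and 27.8 CPM. The lysosomal enzymes Neu1 and Glb1 stood at 137 and 141 CPM at E17.5 and at 14.1 and 22.6 CPM in the adult. Mamdc4, which encodes an endosomal protein of the suckling gut, was among the 12 lowest genes, at 216 CPM and 1 UMI, and had a UMI in 25.7% (66.7%) of E17.5 cells and in 0 of 199 adult cells (0.439%).

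Genes of cholesterol synthesis were also lower, 15 of 18 by at least 2-fold and none higher (median -1.39 log2). In the low-Paneth cells 8 of the 18 passed that limit (median -0.86), and with TMM scaling over all cells the median was -0.92. Fdps, farnesyl diphosphate synthase, stood at 136 CPM at E12.5, 290.0 CPM (285 to 295) at E17.5, 69.7 CPM (64.1 to 75.6) in the adult and 35.5 CPM in the irradiated adult, so both adult libraries were below both embryonic ones, while adult tuft cells held 258 CPM. The pathway enzymes Idi1 and Hmgcs1 stood at 153 and 154 CPM at E17.5 and at 48.7 and 69.8 CPM in the adult. Mvk, mevalonate kinase, stood at 36.1 and 15.7 CPM. The sterol sensor partner Insig1 stood at 154 and 31.4 CPM. The regulator Srebf2 (44.5 and 34.4 CPM) differed by less than 2-fold.

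**Figure D4:**
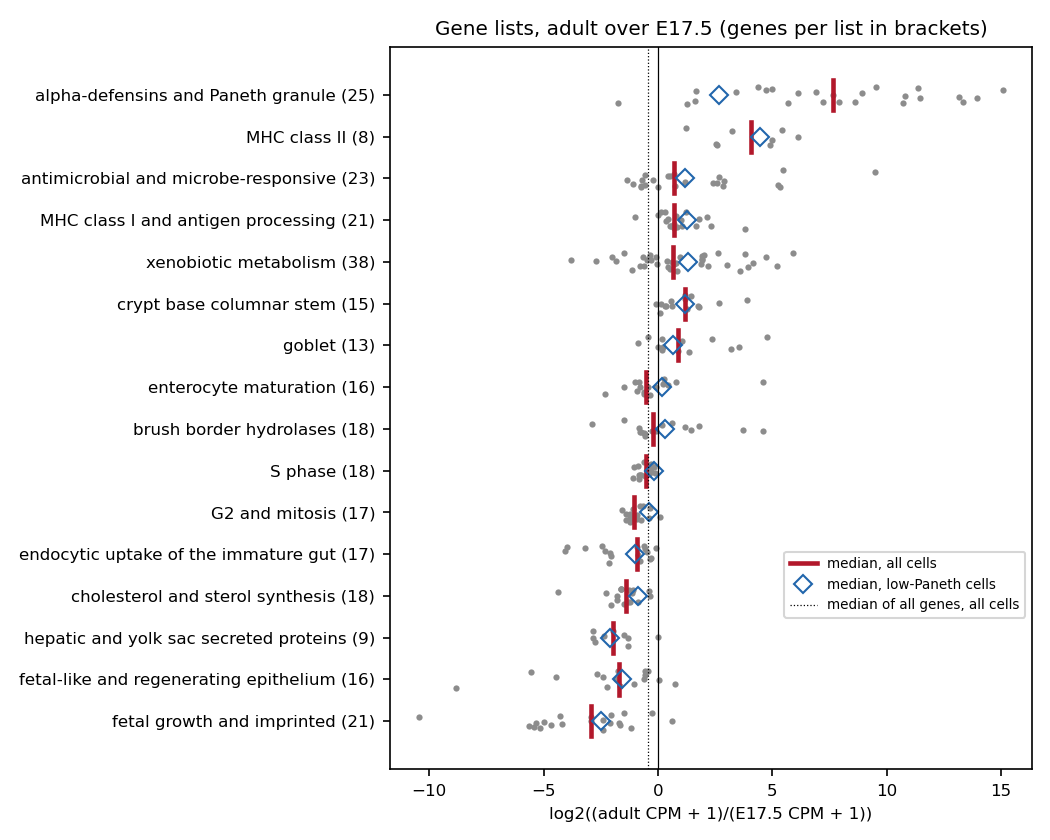
Each grey point is 1 gene of a list, placed on the x axis by the log2 ratio of adult to E17.5 levels (CPM + 1). Red bars are medians over all kept cells, open blue diamonds medians over the low-Paneth cells, and the dotted line is the median of all genes at -0.43; the class II list lies at 4.07 and 4.46, and the fetal growth list at -2.91 and -2.51.

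Of 9 secreted proteins of liver and yolk sac 8 were at least 2-fold lower (median -1.97; low-Paneth 8, median -2.12). The thyroid hormone carrier Ttr stood at 200 and 29.0 CPM and the retinol carrier Rbp4 at 136 and 33.9 CPM. In endocrine cells Rbp4 stood at 2459 CPM at E17.5 and 1252 CPM in the adult. All genes of this list but Fgb stood higher in adult endocrine cells than in the E17.5 kept cells. The adult library as a whole thus did not lack their RNA. Of 20 glycolysis and hypoxia response genes 10 were lower and 1 higher (median -0.97; low-Paneth 5 and 1), with the oxygen sensor Egln3 at 57.5 and 2.39 CPM and the glucose transporter Slc2a1 at 46.3 and 7.54 CPM. The metallothioneins Mt1 and Mt2, which bind zinc and copper, stood at 1901 and 303 CPM at E17.5 and at 304 and 24.8 CPM in the adult. Of 25 genes for Bmi1 and its Polycomb partners 6 were 2-fold lower and none higher (median -0.60, or -0.13 with TMM scaling; low-Paneth 5, median -0.20), against 16.5% lower and a median of -0.43 over all genes. Its lowest member by ratio was Rbbp7 at 481 and 96.6 CPM.

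The 12 lowest genes by ratio held, beside H19 and Mamdc4, the secreted phosphoprotein Spp1 (454 CPM and 0 UMIs, at least 1264-fold lower), the X-linked genes Bex4 (382 and 0.84 CPM) and Bex1 (254 and 2.39 CPM), the folate receptor Folr1 (152 and 0.24 CPM), the glypican Gpc3 (128 and 0.24 CPM) and Smim1 (119 and 1.08 CPM). The list also held Tfec, a transcription factor of the MiT family, at 73.1 CPM and 0 UMIs, and Npl, a lyase of sialic acid, at 85.7 CPM and 1 UMI. Folr1 stood at 167 CPM in adult tuft cells, so the adult library as a whole did not lack it. Acta2, smooth muscle actin, at 60.6 CPM and 0 UMIs, belongs to the smooth muscle RNA of the E17.5 set described above. Pyy, a hormone of the lower gut, stood at 591 and 4.79 CPM. Pyy, Gcg, at 604 and 50.2 CPM, and Gip, at 109 and 2046 CPM, are hormones, and Gip had a UMI in 92.8% of thinned adult tuft cells (99.9% unthinned), a share above the 56.8% of the kept adult cells, all of which held a UMI before thinning.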

How the data were processed

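The files are 4 filtered 10x matrices of raw UMI counts per gene and barcode over 31054 features, as deposited. Per the submitters' processing notes, the authors used Cell Ranger 3.1.0 and mm10, and other steps are not given in the sources used here. From these counts, Python 3.11.15 with numpy 2.4.6, scipy 1.17.1 and pandas 2.3.3 selected the cells by the stated rule, summed their UMIs per library and scaled them to CPM. Genes with at least 10 UMIs in the 2 groups together were compared with a pseudocount of 1 CPM. With 1 library per group no test was run. Levels carry exact Poisson intervals and shares Clopper-Pearson intervals, both at 95%, and a gene without a UMI was set against a floor of 3 UMIs, 0.0575 CPM at E17.5 and 0.359 CPM in the adult. A share of 0 cells was likewise bounded by 3 cells of those counted. Doublets were kept: Scrublet in scanpy 1.11.5 marked 21 E17.5 and 3 adult cells with its own threshold (0.456% and 0.0792%), which is too few to be usable, and removal at 0.8% per 1000 barcodes was tried as an alternative. Scaling by TMM (edgeR 4.0.16) and median of ratios (DESeq2 1.42.0) in R 4.3.3 served only as alternatives, among 24 settings of which 3 were chosen after seeing the data. The calling of 4-fold differences was tested on simulated data. Adult tuft cells had at least 3 of the 4 tuft genes, and adult endocrine cells had Chga and Chgb at 0.5% of UMIs or more.

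Cells and lists were chosen with earlier results of these data known. Genes named are the 12 highest and 12 lowest by ratio with a UMI in at least 2% of cells, the up to 4 most abundant members of each of 63 lists with its highest and lowest, all members of lists of up to 12 genes, and the genes of the cell rule. The 12 highest outside Paneth genes among low-Paneth cells, and the other genes named, were chosen after their values were seen. Gene positions are from GENCODE M21 (GRCm38), matched by identifier for 30934 features, and promoters are from RefSeq.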

Additional observations from a re-analysis of the deposited data

Results flagged for a closer look

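The E12.5 and irradiated adult libraries are not part of the comparison of adult with E17.5 cells, and 9 genes of the lists stood there at 100 CPM or more and at least 20-fold above the higher of the adult and E17.5 levels. In the 3946 E12.5 cells that met the same rule these were Shh, the hedgehog ligand of the gut endoderm, at 316 CPM, the protease inhibitor Serpina1a at 271 CPM, the junction protein Cldn6 at 262 CPM, Basp1 at 233 CPM and fibronectin, Fn1, at 188 CPM. In the 113 irradiated adult cells they were the goblet genes Zg16 at 16182 CPM and Fcgbp at 2859 CPM, Ly6a, a gene of regenerating gut epithelium, at 192 CPM, and Defa34 at 134 CPM. Each value is from 1 library, and its cause was not tested.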

How the results depend on the processing

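Across 24 alternative settings, the number of genes at least 4-fold higher in the adult stayed within 1.5 times of 212 in 19 and the number lower stayed within 1.5 times of 493 in 18. The higher count was 416 when CPM were averaged over cells, 414 with a pseudocount of 0.1 CPM, 69 with 10 CPM, 414 without cells holding any Chga or Chgb UMI (24 adult cells left) and 323 with Paneth genes out of the total. The lower count was 326 with median-of-ratios scaling, 1608 with a pseudocount of 0.1 CPM, 101 with 10 CPM, 916 without Chga or Chgb UMIs, 2738 without cells holding 3 or more G2 and mitosis UMIs and 1334 with cells thinned to 2000 UMIs. Of the 63 lists, 16 had a median beyond 2-fold; with a pseudocount of 10 CPM there were 7, with a mitochondrial limit of 10% there were 32 and without the G2 and mitosis cells there were 44. The cause of these differences was not tested. The share of cells with at least 3 G2 and mitosis UMIs at E17.5 and in the adult was 73.5% and 54.4% without thinning, 34.7% and 17.3% at 1000 UMIs, 60.3% and 45.2% at 4000 UMIs, 68.4% and 53.8% with a limit of 1 UMI and 38.2% and 20.6% with 5 UMIs. Clps was -3.58 in the low-Paneth cells and -3.51 with TMM scaling there, and Gcg was 2.09 without Chga or Chgb UMIs. Depth limits genes with 0 to 3 adult UMIs, where only bounds or wide intervals can be given. No paired analysis was possible because each group is 1 library.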

Other observations

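Cell junction genes held members on both sides, with the pore-forming claudin Cldn15 at 83.8 and 223 CPM and Cldn8, a sealing claudin, at 58.8 and 0.96 CPM. Tff2, a trefoil peptide of the stomach, stood at 41.7 and 0.60 CPM. Of 20 Hox genes 1 was 2-fold higher and 4 lower, near the 4.25% higher and 16.5% lower over all genes tested, with Hoxb7 at 11.3 and 1.44 CPM. Phgdh, the first enzyme of serine synthesis, stood at 205 and 39.3 CPM. Among heat shock genes, Bag3, a co-chaperone, was higher, at 1.09 and 11.9 CPM, and Hspb1 was lower, at 17.8 and 1.32 CPM.

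Single cells carried much of some hormone levels in the adult set. The cell with the most UMIs of the gene held 27.0% of those of Sst, 41.9% of Ghrl and 76.4% of Gcg, so these 3 levels rest on few cells.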
